A study of Mus musculus with 3 samples.

Results

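The suppressor of cytokine signalling (SOCS) family comprises 8 mouse genes, Cish and Socs1 to Socs7, which were selected by symbol in the count files; all 8 were found, among 24421 gene lines. They were measured by RNA-seq in SB28, a mouse glioblastoma line on the C57BL/6 background that was raised from a brain tumour induced with transposons carrying activated Nras, Pdgfb and a hairpin against Trp53. The series holds 1 group of 3 replicate libraries of total RNA; its labels name no treatment, control cells or normal brain. Nothing in the labels says whether the replicates were separate cultures, so SDs and p-values describe the spread between these libraries, which may be technical. The libraries held 28990128 to 36019009 counts assigned to genes.

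SOCS proteins carry a central SH2 domain, which docks on phosphorylated tyrosines, and a C-terminal SOCS box, which recruits elongin B, elongin C and cullin 5 so that the bound protein is ubiquitinated. CIS (the product of Cish) and SOCS1 to SOCS3 are classic feedback inhibitors: cytokine receptors activate JAK kinases, JAKs phosphorylate STAT factors, and STATs switch on these genes. SOCS1 and SOCS3 also block JAK activity directly, while SOCS4 to SOCS7 have long N-terminal regions and are better known for acting on receptor tyrosine kinases and insulin signalling. In glioma, STAT3 is often active and Socs3 is one of its target genes.

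The proximal promoters of 3 feedback members are shown because 2 kinds of cytokine-response motif lie in them. The shares of all windows given below thus describe how common the motifs are and test nothing. Transcripts of these 3 members differed between the libraries beyond counting noise, beside 65.7% of all genes tested. Those of Socs4, and of Socs6 and Socs7, whose promoters were not searched, differed too. A link to the motifs was not tested. Promoter windows on RefSeq starts (GRCm38.p6) were at hand for 4 members, Cish, Socs1, Socs3 and Socs4. They run from 250 bases before to 50 after the RefSeq start. Promoters of Socs2, Socs5, Socs6 and Socs7 were not searched. Each is printed 5′ to 3′ on the strand of its gene, with motif matches in capitals. The motifs searched were TTCNNNGAA, the palindromic core bound by STAT dimers, and 2 copies of GAAA with any 2 bases between them (TTTC on the other strand), a core bound by interferon regulatory factors. The Cish promoter lies at chr9:107296409-107296708 on the + strand, that of Socs1 at chr16:10785487-10785786 on the - strand and that of Socs3 at chr11:117969317-117969616 on the - strand. The gene extents given further on come from GENCODE, whose outermost start is the same for Socs1 but lies 633 bases upstream of the RefSeq start for Cish and 681 bases upstream for Socs3, so both of those windows fall inside the GENCODE gene.
Cish promoter: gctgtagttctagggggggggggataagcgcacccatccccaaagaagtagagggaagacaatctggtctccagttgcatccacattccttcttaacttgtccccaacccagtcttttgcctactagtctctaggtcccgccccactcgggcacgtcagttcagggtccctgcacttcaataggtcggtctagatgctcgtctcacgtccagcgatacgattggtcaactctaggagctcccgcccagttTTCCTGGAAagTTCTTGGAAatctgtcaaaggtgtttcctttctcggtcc
Socs1 promoter: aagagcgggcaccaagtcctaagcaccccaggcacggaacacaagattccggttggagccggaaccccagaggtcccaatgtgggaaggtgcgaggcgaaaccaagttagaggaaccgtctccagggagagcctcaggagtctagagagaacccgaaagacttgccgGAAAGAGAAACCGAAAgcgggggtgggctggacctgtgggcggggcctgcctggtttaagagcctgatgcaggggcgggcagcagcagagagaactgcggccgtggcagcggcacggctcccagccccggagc
Socs3 promoter: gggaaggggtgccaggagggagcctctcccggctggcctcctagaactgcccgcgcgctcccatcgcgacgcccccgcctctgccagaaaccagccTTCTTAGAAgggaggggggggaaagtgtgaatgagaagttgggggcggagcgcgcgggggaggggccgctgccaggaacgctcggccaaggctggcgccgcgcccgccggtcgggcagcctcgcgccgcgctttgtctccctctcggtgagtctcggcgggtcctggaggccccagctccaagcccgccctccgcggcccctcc
Cish held 2 matches to the STAT core, TTCCTGGAA beginning at the RefSeq start itself and TTCTTGGAA beginning 11 bases after it. Of 32851 promoter windows of the same length, 8.30% held at least 1 such match and 0.457% held at least 2. Socs3 held 1 match, TTCTTAGAA, beginning 154 bases before the RefSeq start. Socs1 held no STAT core in this window and 2 overlapping matches to the interferon core, which 3.44% of windows held at least once and 0.225% at least 2 times. The Socs4 window held neither motif. A match is a run of letters and does not show that a factor was bound.

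All 8 members were detected, meaning 1 count per 1000000 assigned counts (1 CPM) or more in every library, beside 46.6% of all gene lines. Their summed level was 499, 503 and 520 CPM in replicates 1, 2 and 3. Socs5 alone held 61.1% ± 2.35 of the family's counts (SD, n = 3) and Socs6 a further 17.3% ± 1.78. CIS and SOCS1 to SOCS3 together held 10.6% ± 0.940. The median of log2(CPM per kilobase + 1) was 2.48 over the 8 members, beside 0.29 over all genes with a length and 3.09 over detected genes.

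The first and second replicates resembled each other and the third stood apart. Replicates 1 and 2 differed beyond counting noise in 2.01% of genes tested, replicates 1 and 3 in 64.0% and replicates 2 and 3 in 62.9% (chi-square test, Benjamini-Hochberg adjusted p under 0.05). Reads that overlapped no annotated gene made up 6.54% of the lines counted in replicate 3 and 5.19% and 5.27% in replicates 1 and 2. With ambiguous and multiply placed reads added, unassigned reads made up 17.1% in replicate 3 and 15.2% in each of replicates 1 and 2. Blood cell markers were close to absent: 10 of 10 lay below 1 CPM in every library, with 22, 8 and 25 counts in sum over replicates 1, 2 and 3, and Cd3e, Nkg7, Aif1, Adgre1 and Tyrobp at 0. Of 6 brain cell markers, Nes and Vim were detected, at 427 ± 20.2 and 5404 ± 100.1 CPM, while Gfap of astrocytes, Olig2 of the oligodendrocyte lineage and Rbfox3 of neurons had 0 counts and Mog had 1. In the shallowest library a count of 0 leaves room for 0.103 CPM.

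**Figure D1:**
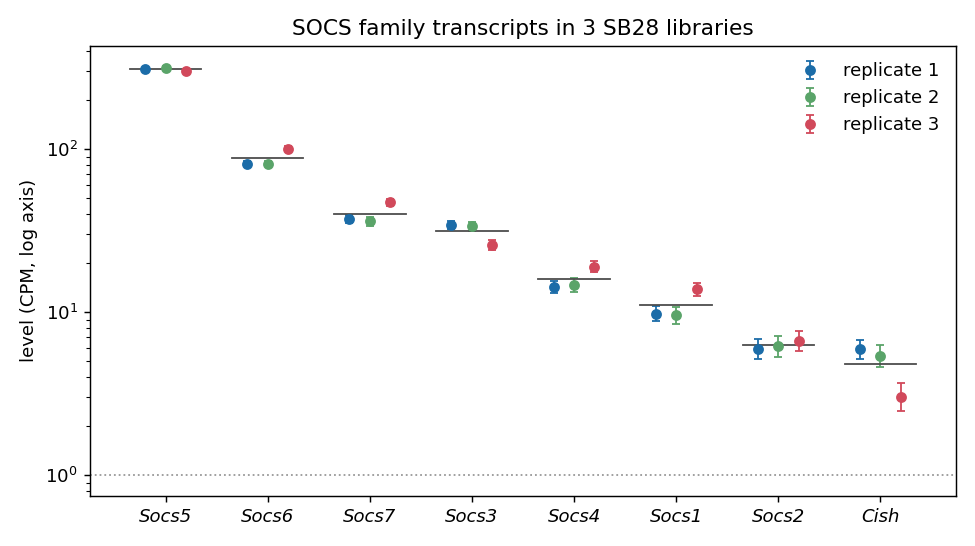
Level of each SOCS family gene in CPM (log axis) in replicates 1, 2 and 3. Points are libraries, bars are exact 95% Poisson intervals for counting error, horizontal lines are means, and the dotted line marks 1 CPM; Socs5 stands highest in every library and Cish shows the widest spread.

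Among the feedback members, Socs3, the suppressor that binds the shared receptor chain gp130, was the most abundant. It had 1242, 977 and 841 counts in replicates 1, 2 and 3, or 34.5, 33.7 and 25.8 CPM. Replicate 3 was lower than both others, at 0.756 times their mean, and the 3 counts differed beyond counting noise (chi-square adjusted p = 2.55e-10). In bulk RNA, fewer cells carrying a transcript and less of it per cell cannot be told apart. Socs3 lies on chromosome 11 at 117966079 to 117970047 (GRCm38, - strand).

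Cish, the founding member of the family and a STAT5 target, was the lowest by CPM. It had 214, 157 and 99 counts, or 5.94, 5.42 and 3.03 CPM. Replicate 3 stood at 0.534 times the mean of the other libraries, the widest difference among the 8 members, with a chi-square adjusted p of 2.42e-07. Cish lies on chromosome 9 at 107296026 to 107302784 (GRCm38, + strand), and its exons share 261 bases with Gm17040 and 479 with Gm17041 on the other strand. Neither of those is in the count files, and the strand setting is not given, so reads from them may be counted as Cish.

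Socs1, which inhibits JAKs downstream of interferons, went the other way. It had 353, 279 and 452 counts, or 9.80, 9.62 and 13.9 CPM, and replicate 3 was 1.43 times the mean of the others (chi-square adjusted p = 8.93e-08). Socs2, which restrains growth hormone receptor signalling, had 215, 180 and 218 counts, or 5.97, 6.21 and 6.68 CPM. Its 3 libraries overlapped within counting error (chi-square adjusted p = 0.517). Socs1 lies on chromosome 16 at 10782240 to 10785536 and Socs2 on chromosome 10 at 95385362 to 95417180, both on the - strand.

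Socs5, which is linked to the epidermal growth factor receptor and to interleukin-4 signalling, was the dominant transcript of the family. It had 11149, 9159 and 9903 counts, or 310, 316 and 303 CPM, and lay at the 95.2nd percentile of detected genes by mean CPM. It was also the steadiest member: its highest library exceeded its lowest 1.04-fold, and the chi-square adjusted p over the 3 libraries was 0.108. That p was 0.0333 when libraries were scaled by total counts and 0.0388 without replicate 1. Socs5 lies on chromosome 17 at 87107679 to 87137839 (+ strand).

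Its closest relative, Socs4, was far lower, at 14.2, 14.7 and 19.1 CPM from 513, 425 and 622 counts. Replicate 3 was 1.32 times the mean of the others (chi-square adjusted p = 6.05e-07). Socs4 lies on chromosome 14 at 47276931 to 47296102 (+ strand).

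Socs6 and Socs7, the pair known for binding insulin receptor substrates, moved alike across the libraries. Socs6 had 2939, 2368 and 3285 counts, or 81.6, 81.7 and 101 CPM, and Socs7 had 1345, 1047 and 1544 counts, or 37.3, 36.1 and 47.3 CPM. In both genes replicates 1 and 2 were close together and replicate 3 was higher, at 1.23 times their mean for Socs6 (chi-square adjusted p = 1.44e-20) and 1.29 times for Socs7 (7.49e-14). That course was not particular to the pair: Socs1 and Socs4 were also highest in replicate 3. Of all genes tested, 33.0% differed between libraries and were highest there. Socs6 lies on chromosome 18 at 88665224 to 88927481 (- strand) and Socs7 on chromosome 11 at 97362551 to 97398542 (+ strand).

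Over the family, 6 of 8 members differed between libraries beyond counting noise, beside 65.7% of 12737 genes tested, so the members' share lay near that of all genes. Of the 6, Cish and Socs3 were lowest in replicate 3, and Socs1, Socs4, Socs6 and Socs7 were highest there. Of the 8369 genes that differed, 4018 were lowest in replicate 3 and 4200 were highest, or 31.5% and 33.0% of all genes tested. The fold between the highest and the lowest library had a median of 1.32 over the members and 1.23 over all genes tested. Dispersions were also estimated from these 3 libraries, so the distance of replicate 3 enters the variance itself, and a call lost under them does not show that the libraries were alike. With the common dispersion from edgeR 0 of 8 members were called, and 0 had an unadjusted p under 0.05, beside 1.99% of genes called. With the median dispersion from DESeq2 0 of 8 were called and Cish alone had an unadjusted p under 0.05 (0.0271), beside 3.63% of genes called. The share of all genes with an unadjusted p under 0.05 was not counted for either dispersion. Without replicate 3, 0 of 8 differed, beside 2.01% of all genes tested. The chi-square adjusted p then lay between 0.650 for Socs5 and 0.994 for Socs6. The part of replicate 3's higher share of unassigned reads in these differences was not tested.

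**Figure D2:**
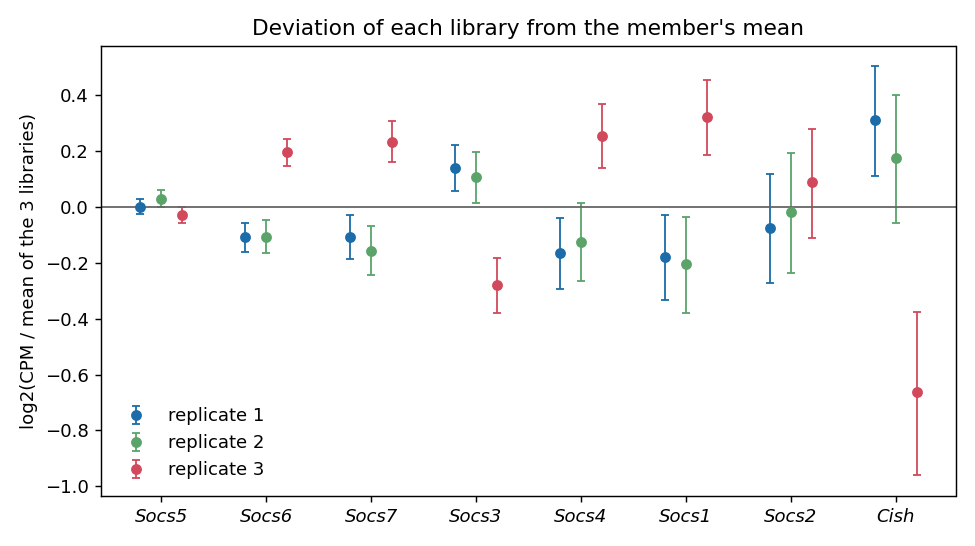
Deviation of each library from a member's own mean, as log2(CPM / mean of the 3 libraries), with bars for exact 95% Poisson intervals. Replicate 3 lies above the others for Socs6, Socs7, Socs4 and Socs1 and below them for Socs3 and Cish, while the intervals overlap for Socs2.

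The order of the members was then read per length, since longer transcripts gather more counts. With union exon length, Socs5 stood at 48.3 ± 0.972 CPM per kilobase, Socs3 at 10.8 ± 1.67, Socs6 at 7.75 ± 0.968 and Socs7 at 5.54 ± 0.845 (SD, n = 3). Socs1 followed at 3.81 ± 0.822 CPM per kilobase, Socs4 at 2.32 ± 0.388, Cish at 0.747 ± 0.241 and Socs2 at 0.660 ± 0.0380. Correction for union exon length thus moved Socs3 ahead of Socs6 and Socs7, Socs1 ahead of Socs4 and Cish ahead of Socs2. With the longest transcript or the coding length, Socs6 stayed ahead of Socs3 and Socs2 ahead of Cish, while the other moves held.

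Each of the 28 pairs was compared within libraries, and 26 differed by more than the spread between replicates, meaning that all 3 log2 ratios had 1 sign and their mean exceeded 2 SD. The neighbours Socs3 and Socs6, and Cish and Socs2, did not. Socs3 lay 1.39-fold above Socs6 on average, but 1.66-fold and 1.62-fold in replicates 1 and 2 and 1.01-fold in replicate 3. With the length of the longest transcript the average turned to 0.839-fold, and with coding length to 0.841-fold. The exact two-sided sign-flip permutation p was 0.25 for 27 of the 28 pairs, the smallest that 3 libraries allow, so no pair could reach 0.05. In all, 28 pairs differed by this rule without replicate 3.

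Within the 4 pairs of closest relatives, Socs5 exceeded Socs4 by the widest margin. Socs4 over Socs5 had a log2 ratio of -4.39 ± 0.26, so that Socs5 lay 20.9-fold above Socs4 per length, and between 15.9-fold and 28.9-fold with the other length measures. Socs1 over Socs3 had a log2 ratio of -1.51 ± 0.53, with -1.82, -1.81 and -0.90 in replicates 1, 2 and 3, so the JAK-blocking pair lay closest together in replicate 3. Socs6 over Socs7 was steady at 0.49 ± 0.04, or 1.40-fold, and was 2.55-fold with the longest transcript, with 6036 bases for Socs6 in place of 11349 over all its exons. Cish over Socs2 was 0.12 ± 0.60, with 0.56, 0.37 and -0.56 in the 3 libraries, and the exact two-sided permutation p was 1. Its sign turned in replicate 3 and with every other length measure.

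**Figure D3:**
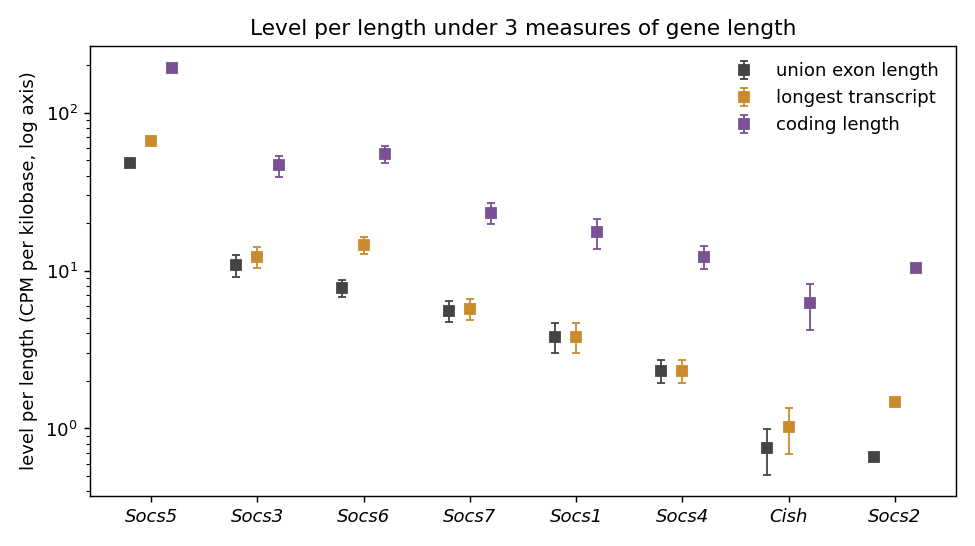
Level per length of each member (CPM per kilobase, log axis, mean ± SD over 3 libraries) computed with union exon length, the longest transcript and the coding length. Socs5 is highest under each measure, while Socs3 and Socs6 trade places, as do Cish and Socs2.

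The signalling chain that SOCS proteins restrain was largely transcribed in the line. Of 11 JAK and STAT genes, 10 were detected, beside 46.6% of all gene lines, and Stat4, a factor of lymphocytes, had 0 counts. The broadly used kinase Jak1 had 161, 171 and 169 CPM in replicates 1, 2 and 3. Jak2, the kinase of growth hormone and interferon gamma receptors, had 56.2, 58.2 and 33.8 CPM, and Tyk2 had 42.6, 39.7 and 33.7 CPM. Jak3, the lymphoid kinase, was low at 3.47 ± 1.06 CPM. Stat3, the main mediator of gp130 signals, had 164, 166 and 108 CPM, and Stat2 had 37.6, 38.0 and 15.6 CPM. Stat5a had 15.3, 14.5 and 11.1 CPM, whereas Stat5b had 44.3, 42.4 and 47.7 CPM and Stat6, the interleukin-4 factor, had 116, 112 and 119 CPM. All 10 tested genes of the list differed between libraries beyond counting noise, beside 65.7% of all genes tested. Of the 10, 7 were lowest in replicate 3, as were Socs3 and Cish, beside 4018 of the 8369 genes that differed. With the edgeR dispersion 0 of the 10 were called, beside 1.99% of all genes. An unadjusted p under 0.05 was found for 1, a share not counted over all genes. With the DESeq2 dispersion Stat2 alone was called (adjusted p = 0.0188), beside 3.63%.

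Receptor transcripts were present for some of the cytokines that SOCS proteins act on. Of 24 receptor genes, 13 were detected, beside 46.6% of all gene lines. The 4 with the highest CPM were the growth hormone receptor Ghr (174, 178 and 197 CPM), the gp130 gene Il6st (164, 169 and 157 CPM), the interferon receptor chain Ifnar1 (115, 110 and 88.4 CPM) and Il13ra1 (56.6, 59.1 and 26.7 CPM). Csf3r, Il7r and Il10ra had 0 counts. Of 14 receptor genes tested, 13 differed between libraries, beside 65.7% of all genes tested. Of those 13, 11 were lowest in replicate 3, beside 4018 of the 8369 genes that differed. Osmr, chosen after its values were seen, had 18.7, 19.7 and 6.28 CPM, so the receptor chain for oncostatin M in replicate 3 stood at 0.327 times the mean of the others. It was the only receptor gene called with the edgeR dispersion (adjusted p = 0.0262), beside 1.99% of all genes. Il4ra, likewise chosen, had 35.6, 36.1 and 54.2 CPM and was highest in replicate 3.

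Few of the ligands were transcribed by the line itself. Of 22 ligand genes, 5 were detected, beside 46.6% of all gene lines, and 12 had 0 counts. The gp130 ligand Clcf1 had 56.6, 54.3 and 118 CPM in replicates 1, 2 and 3, and Il11 had 18.0, 18.1 and 15.05 CPM. Lif, another gp130 ligand, had 13.3, 13.3 and 4.38 CPM, and Ctf1 had 2.39, 3.04 and 1.65 CPM. Replicate 3 was thus 2.12 times the mean of the others for Clcf1 and 0.330 times for Lif. Both were called with the edgeR dispersion (adjusted p = 0.0326 for Clcf1 and 0.0324 for Lif), as no other ligand was; the share over all genes was 1.99%. Il6, named after its values were seen, had 10, 7 and 4 counts.

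Of 12 genes known as STAT targets, 10 were detected, beside 46.6% of all gene lines. Highest among them were Mcl1 at 181 ± 2.82, Myc at 166 ± 4.97, Bcl2l1 at 149 ± 10.4 and Junb at 119 ± 14.6 CPM. Of 11 tested, 8 differed between libraries, near the 65.7% of all genes tested. Of those 8, 6 were lowest in replicate 3, beside 4018 of the 8369 genes that differed. With the edgeR dispersion 0 were called, beside 1.99% of all genes, and with that of DESeq2 0, beside 3.63%. With the edgeR dispersion 3 had an unadjusted p under 0.05, a share not counted over all genes. The interferon-responsive factor Irf1, chosen after its values were seen, had 38.6, 37.7 and 17.4 CPM and was lowest in replicate 3, the library in which Socs1 was highest. Without replicate 3, 0 genes of the JAK and STAT, receptor, ligand and STAT target lists differed beyond counting noise, beside 2.01% of all genes tested. This count was added after seeing the data. The median of log2(replicate 3 / mean of replicates 1 and 2) was -0.38 over the tested STAT targets, -0.44 over the JAK and STAT genes and -0.38 over the receptors, beside 0.22 over the 8 SOCS members and -0.01 over all genes tested. Over the tested ligands it was 0.15, so the lists did not share 1 direction. It was -0.16 over other restraints of JAK-STAT signalling and -0.11 over receptor kinases and adaptors bound by SOCS proteins. SOCS-box ligase partners had 0.03 and other SOCS-box genes -0.01.

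**Figure D4:**
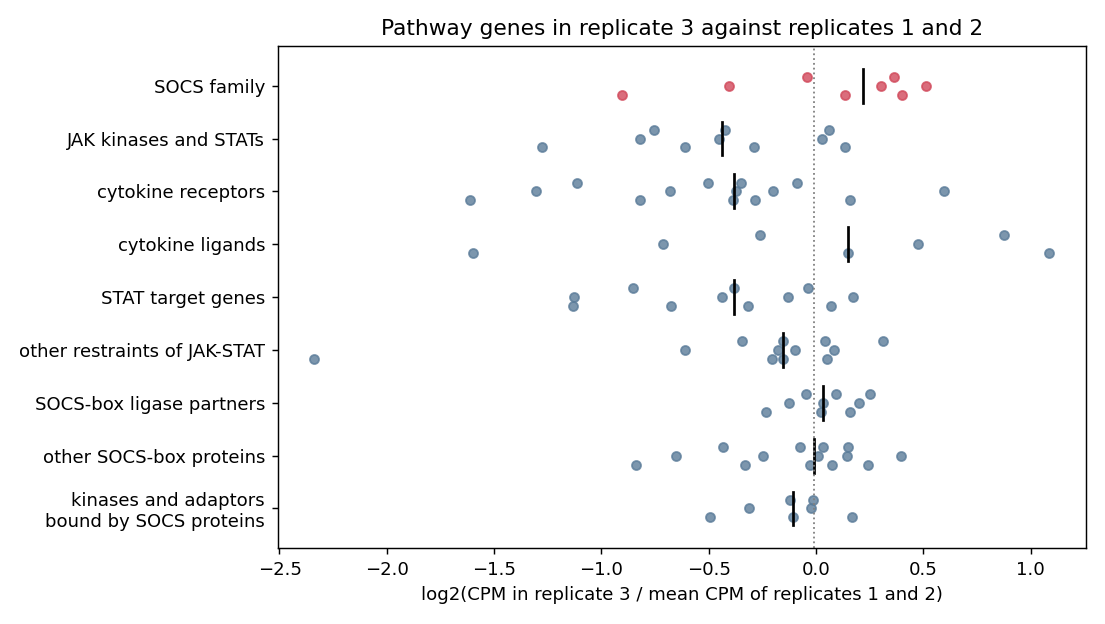
Log2 ratio of CPM in replicate 3 to the mean CPM of replicates 1 and 2, for every tested gene of each list (points), with the list median (black line) and the median of all tested genes (dotted line). JAK and STAT genes, receptors and STAT targets have medians from -0.44 to -0.38, and the SOCS members spread from -0.90 to 0.51. The remaining lists have medians from -0.16 for other restraints of JAK-STAT to 0.15 for ligands.

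The ligase machinery that the SOCS box recruits was present throughout. All 9 genes of that list were detected, beside 46.6% of all gene lines. The elongin B gene Elob had 121 ± 10.9 CPM and the ubiquitin-like modifier Nedd8 92.8 ± 1.35. Rbx1, a RING protein gene, had 91.4 ± 1.36 and the scaffold Cul5 79.5 ± 8.23 CPM. Rnf7, another RING protein gene of the list and not among the genes named by rule, had 57.8, 59.8 and 62.7 CPM. Of the 9, 6 differed between libraries, beside the 65.7% of all genes tested. Of those 6, 2 were lowest and 4 highest in replicate 3, beside 4018 and 4200 of the 8369 genes that differed. Cul5 had 73.7, 75.9 and 88.9 CPM and was highest in replicate 3, whereas Elob had 127, 127 and 108 CPM and was lowest there.

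Other restraints of JAK-STAT signalling were detected in 11 of 12 cases, beside 46.6% of all gene lines. The phosphatase genes Ptpn11 (290 ± 10.01 CPM) and Ptpn1 (89.5 ± 1.91), the STAT inhibitor Pias2 (85.7 ± 6.94) and the ubiquitin ligase Cbl (63.5 ± 9.10) had the highest CPM. Usp18, which limits interferon receptor signalling and was not among the genes named by rule, fell on both sides of 1 CPM, with 4.05, 3.38 and 0.735 CPM. It was called with the edgeR dispersion as well (adjusted p = 0.00588), beside 1.99% of all genes. Of the 12, 9 differed between libraries, near the 65.7% of all genes tested. Of those 9, 7 were lowest in replicate 3, beside 4018 of the 8369 genes that differed. Without replicate 3, Cbl alone differed, beside 2.01% of all genes tested.

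Among 8 receptor kinases and adaptors bound by SOCS proteins, 7 were detected, beside 46.6% of all gene lines. Igf1r had 210 ± 8.80, the focal adhesion kinase gene Ptk2 161 ± 0.947, the insulin receptor substrate gene Irs1 143 ± 10.4 and Insr 138 ± 26.1 CPM, while Kit had 0 counts. Egfr, a reported target of SOCS5 and named after its values were seen, had 48.0, 47.3 and 38.4 CPM.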

How the data were processed

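RNA was measured in 3 replicate libraries of 1 group, prepared with a TruSeq RNA kit, per the labels. The deposited files hold raw counts per gene symbol. Per the submitters' processing notes, Bowtie2 2.2.4 and HTSeq were used with mm10, without roles, options or strand setting; an aligner used without splice handling would lose reads across exon junctions. The 5 summary lines for unassigned reads, 15.2% to 17.1% of all lines counted, were left out. Reads placed at several positions are not in gene counts.

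CPM used assigned counts. Gene lengths and positions came from GENCODE M21 (GRCm38); 23358 symbols matched directly, 650 through RefSeq synonyms and 413 not at all, and all 8 members matched directly. Elob and Eloc stood under older symbols. Libraries were compared per gene by a chi-square test of the 3 counts after TMM scaling (edgeR 4.0.16), over 12737 genes averaging 10 counts or more, and p-values were adjusted over all of them by Benjamini-Hochberg. This test measures counting noise only. Dispersions came from edgeR and DESeq2 1.42.0. Pair ratios added 0.5 counts, on the log2(count + 0.5) scale. Intervals and floors (3 counts) cover counting error only, since PCR copies are not independent molecules. Tests were run on simulated data first. Python 3.11.15, scipy 1.17.1 and R 4.3.3 were used.

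The members and lists were chosen with earlier results of these data known. Beside the members, the rule named the 4 detected genes of highest CPM in each list, all JAKs and STATs, members at 0 where fewer than 5 existed, detected cell markers (some items are not reported here), and for each member the gene of nearest profile. Replicates 1 and 2 differed beyond counting noise and were kept as separate samples.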

Additional observations from a re-analysis of the deposited data

How the results depend on the processing

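The members' levels moved little between scalings: TMM and DESeq2 size factors kept each member's sign in replicate 3 and shifted the median of all tested genes by less than 0.1. All 8 members were detected under every alternative except a threshold of 5 CPM, where 7 were. The count of differing genes was 8369 with 3 libraries and ranged from 256 to 8191 when 1 library was left out, the lowest without replicate 3; for the members the range was 0 to 7. With the edgeR and DESeq2 dispersions 254 and 462 genes differed, and 0 members with either; both dispersions come from the libraries compared. The 26 differing pairs numbered 23 to 28 under all alternatives. Socs1 over Socs3, Socs4 over Socs5 and Socs6 over Socs7 kept their direction and call throughout. Cish over Socs2 turned to -0.59 with the longest transcript, -0.81 with coding length, -0.45 without length and -0.042 with replicates 1 and 2 averaged, and ranged from -0.10 to 0.47 when 1 library was left out. Detection of the pathway lists, an alternative added after seeing the data, moved by over 1.5 times for the ligands alone, with 2 detected at 5 CPM. No paired analysis was possible because there is 1 group. Cish and Socs2, with 99 to 218 counts a library, are the members whose precision depth limits most.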

Other observations

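Beyond the 8 SOCS genes, many other proteins carry a SOCS box on a different binding domain. Of 26 such genes, 13 were detected, beside 46.6% of all gene lines, and 6 had 0 counts. The WD-repeat gene Wsb2 had 164, 156 and 190 CPM in replicates 1, 2 and 3 and Wsb1 had 121, 126 and 138 CPM, while the ankyrin-repeat gene Asb6 had 52.1, 50.8 and 67.7 CPM and the SPRY-domain gene Spsb1 had 44.6, 42.2 and 34.4 CPM. Of 14 tested, 7 differed between libraries by the chi-square test, 4 lowest and 3 highest in replicate 3, beside 65.7% of all genes tested.

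The gene whose 3 log2 CPM values lay nearest to those of Socs3, by Euclidean distance over 3 libraries and 12733 genes, was Lactb2 at 0.00881. It was Rassf5 for Socs4 (0.00640), Mtfr2 for Socs1 (0.0163), Gnptab for Socs6 (0.0169), 2810004N23Rik for Socs7 (0.00712), Ssr1 for Socs5 (0.0250), Sclt1 for Socs2 (0.0649) and Trim12c for Cish (0.0998). With so few libraries, small distances are common among genes of like level.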
